A study of Mus musculus with 10 samples.

Results

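Serum amyloid A proteins are small apolipoproteins, and mice carry 4 genes for them, Saa1, Saa2, Saa3 and Saa4. These 4 genes were picked by symbol from a table of 24839 genes and assembled transcripts, and all 4 had a row. They were picked because the family was already seen to differ between the groups of this series, so their own levels are given as a description and are not tested. The RNA came from mouse epithelial cells of the small intestine in 10 libraries, 5 titled HCD, for the high cellulose diet named by the series, and 5 titled NCD, which the labels do not spell out. HCD libraries carry an ovalbumin (OVA) treatment label and NCD libraries an untreated one. In the described design both diets ran for 60 days, and OVA, an egg white protein that induces food allergy, was injected at 50 µg with 1 mg of alum on days 0 and 14 and then given orally at 50 mg on 5 occasions, with saline in the other groups. Diet and OVA are therefore joined in every comparison of HCD with NCD and cannot be told apart. The sources used here give no strain, age, sex or informative genotype. Library numbers run from 11 to 20 in HCD and from 1 to 10 in NCD, so handling that follows these numbers cannot be told apart from the groups either.

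As background, serum amyloid A is the classical acute phase protein of mice and humans. The liver secretes it onto high-density lipoprotein after IL-1, IL-6 and TNF reach hepatocytes, through C/EBP factors, NF-kB and STAT3. In the gut, Saa1 and Saa2 are made by epithelial cells, mainly of the ileum and colon, when microbes attach to the epithelium and lymphocytes release IL-22. There the proteins carry retinol and act on T helper 17 cells. Saa3 is made by macrophages, fat cells and some epithelia, and Saa4 is a constitutive apolipoprotein of the liver.

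The genes lie together on chromosome 7 (GRCm38). In GENCODE M21 Saa3 spans 46711998 to 46715700, Saa4 spans 46727998 to 46732603 and Saa1 (ENSMUSG00000074115) spans 46740497 to 46742980, all on the minus strand. Saa2 (ENSMUSG00000057465) lies on the plus strand at 46751790 to 46754313, head to head with Saa1. RefSeq lists the names Saa1 and Saa2 as synonyms of each other, so the identifiers and positions given here say which gene is meant. Promoter sequences of all 4 genes were found in RefSeq. The 250 bases before the RefSeq start are shown for Saa1 and Saa2, because these promoters are near copies while the genes' listed levels in the libraries were far apart, and for Saa3, the other member with a signal in both groups. For Saa2 and Saa3 the RefSeq start lies inside the GENCODE gene, so the window overlaps its first bases. Capitals mark a C/EBP-type motif, TTGCNNAA on either strand.
Saa1, chr7:46742981-46743230, minus strand: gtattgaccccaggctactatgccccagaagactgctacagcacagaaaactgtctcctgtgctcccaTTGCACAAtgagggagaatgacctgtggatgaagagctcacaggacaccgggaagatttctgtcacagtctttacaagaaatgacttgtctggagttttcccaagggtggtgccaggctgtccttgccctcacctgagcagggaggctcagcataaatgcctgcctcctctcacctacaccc
Saa2, chr7:46751583-46751832, plus strand: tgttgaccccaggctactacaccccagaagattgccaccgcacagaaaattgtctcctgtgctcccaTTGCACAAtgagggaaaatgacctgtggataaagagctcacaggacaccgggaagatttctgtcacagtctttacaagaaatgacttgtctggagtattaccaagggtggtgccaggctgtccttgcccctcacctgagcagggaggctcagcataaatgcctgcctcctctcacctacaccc
Saa3, chr7:46715677-46715926, minus strand: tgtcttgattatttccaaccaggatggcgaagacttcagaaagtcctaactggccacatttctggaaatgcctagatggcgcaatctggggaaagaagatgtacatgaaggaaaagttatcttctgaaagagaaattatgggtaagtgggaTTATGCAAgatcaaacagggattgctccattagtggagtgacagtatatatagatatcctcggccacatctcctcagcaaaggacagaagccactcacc

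The Saa1 and Saa2 windows were 94.8% identical over 251 aligned columns, with 11 mismatches and 2 gap columns. Saa1 and Saa3 windows were 48.5% identical. Each of Saa1, Saa2 and Saa3 held 1 match to the C/EBP-type motif, and Saa4 held 2. Such a match was present in 9.56% of 32851 mouse promoter windows of the same length. The NF-kB consensus (in 7.25% of all windows), a STAT motif TTCNNNGAA (7.02%), an AP-1 motif TGANTCA (6.75%) and TATAAA (12.4%) had no match in any of the 4 windows. This says only that these letters are not in these windows.

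Saa1 and Saa2 transcripts are near copies as well. The main protein-coding transcripts, Saa1-201 of 609 bases and Saa2-201 of 606 bases, were 93.9% identical, and their 366 coding bases differed at 18 positions. Fragments over any of these positions can help to tell the genes apart. The 60 coding bases within a single exon that hold the most of these differences, 7 in number, are shown with the differing bases in capitals.
Saa1, chr7:46741335-46741394, minus strand: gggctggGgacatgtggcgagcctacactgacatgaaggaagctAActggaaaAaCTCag
Saa2, chr7:46753418-46753477, plus strand: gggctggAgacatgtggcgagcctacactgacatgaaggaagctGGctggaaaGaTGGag
No stretch of 100 bases of Saa1-201 occurred whole in Saa2-201. Read length and the way fragments were divided between the copies are likewise unstated in these sources, so the split between Saa1 and Saa2 is the submitters' and remains uncertain.

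Of the 4 genes, Saa1 held nearly all of the family's signal, and it was high in 4 of 5 HCD libraries. Values are FPKM, fragments scaled by transcript length and by the mapped fragments of the library. In HCD replicates 1 to 5 Saa1 was at 164, 0.708, 14.9, 8.47 and 29.0 FPKM, against 0.640, 0, 0.139, 0 and 2.32 FPKM in NCD replicates 1 to 5. HCD replicates 1, 3, 4 and 5 lay above every NCD library, while HCD replicate 2 lay below NCD replicate 5, so the groups overlapped. At least 4 HCD libraries lay above every NCD library in 8.0% of the 10321 genes whose mean over the libraries reached 1 FPKM, which are the genes that were tested.

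The Saa1 mean was 43.4 ± 68.2 FPKM in HCD and 0.619 ± 0.985 FPKM in NCD (SD, n = 5 each), a ratio of 70.1. The medians were 14.9 FPKM in HCD and 0.139 FPKM in NCD. On the log2(FPKM + 1) scale, where the pseudocount of 1 holds down the change of low values, the difference of the means, HCD minus NCD, was 3.53. By that difference Saa1 ranked number 4 of 10321 tested genes, and by the ratio of means number 7. These ranks only describe a gene that was picked from this same contrast. Its mean reached 1 FPKM, the limit for testing, only through the HCD libraries. A single library sets much of the ratio on either side. Without HCD replicate 1 the ratio was 21.4 and the log2 difference 2.70. Without NCD replicate 5 the ratio was 223, and without HCD replicate 2 the log2 difference was 4.35. Among replicates 1 to 3 the ratio was 231 and among replicates 4 and 5 it was 16.2, the runs into which the library numbers fall.

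Saa1 also varied more between HCD libraries than nearly any other tested gene. Its SD of log2(FPKM + 1) was 2.40 in HCD, number 6 of 10321 tested genes, and 0.73 in NCD, number 357. The rank in HCD is likewise a description, of a gene that was tested only because of its HCD values. The median SD over all tested genes was 0.29 in each group. In HCD replicate 1 Saa1 was the row with rank 497 by FPKM, in replicate 5 rank 2264, in replicate 3 rank 3605, in replicate 4 rank 5096 and in replicate 2 rank 11181. In NCD its ranks were 8359 in replicate 5, 11056 in replicate 1 and 13478 in replicate 3, and it was listed at 0 in replicates 2 and 4. Between 14552 and 16240 rows were above 0 in HCD libraries, and between 13577 and 15124 in NCD libraries.

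Saa2 was listed at low values or at 0 where Saa1 was abundant. It was at 0.270 FPKM in HCD replicate 1 and 0.0785 FPKM in HCD replicate 5, and listed at 0 in the other 3 HCD libraries and in all NCD libraries. These 2 libraries were also the highest in Saa1. FPKM is per length, but the shares that follow rest on the submitters' uncertain division of fragments between the near-identical Saa1 and Saa2. In HCD replicate 1 Saa1 made up 99.4% of the summed FPKM of the family, against 0.163% for Saa2 and 0.473% for Saa3. Over the 5 HCD libraries the share of Saa1 was between 95.0% and 100%. Among NCD libraries it was 89.2% in replicate 1 and 100% in replicates 3 and 5, and in replicate 2 all of the family's FPKM was Saa3.

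Saa3, the form made by macrophages and fat cells, stayed under 1 FPKM in every library. It was at 0.781, 0, 0.784, 0.0254 and 0 FPKM in HCD replicates 1 to 5, against 0.0773, 0.469, 0, 0 and 0 FPKM in NCD replicates 1 to 5. HCD replicates 1 and 3 lay above all NCD libraries and the others overlapped with NCD. Means were 0.318 ± 0.424 FPKM in HCD and 0.109 ± 0.204 FPKM in NCD (SD, n = 5 each), a log2 difference of 0.21. Without HCD replicates 1 and 3 together that difference changed sign to -0.12. Saa4, the constitutive liver form, was listed at 0 in all 10 libraries. Only Saa1 reached the mean of 1 FPKM needed for testing, so 1 of 4 members was among the tested genes.

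**Figure D1:**
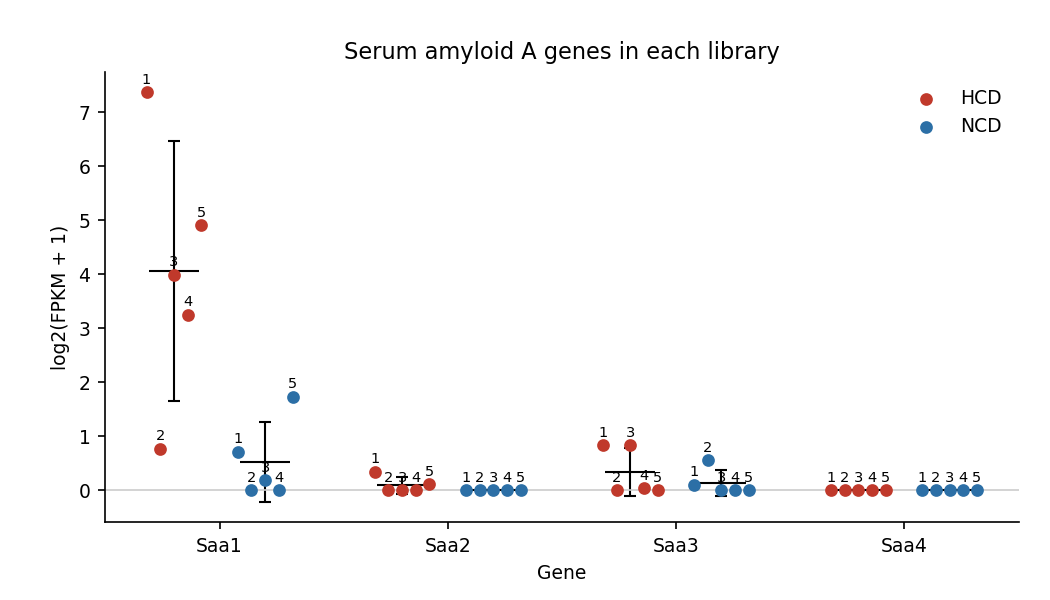
Expression of the 4 serum amyloid A genes as log2(FPKM + 1), with 1 point per library labelled by its replicate number and HCD (red) left of NCD (blue); the dash and bar are mean and SD over 5 libraries. Saa1 spreads from 0.708 to 164 FPKM in HCD and lies at 2.32 FPKM or lower in NCD, while Saa2, Saa3 and Saa4 stay under 1 FPKM throughout.

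Genes that mark parts of the gut were looked up because Saa1 is a gene of the ileum and colon, and they did not move together. The 5 genes of the ileum list summed to 292 to 1717 FPKM in HCD and 522 to 921 FPKM in NCD. Among them Slc10a2, the bile acid transporter of the ileum, was at 0.562, 0.172, 0.841, 1.92 and 7.43 FPKM in HCD replicates 1 to 5, against 0.187 to 0.878 FPKM in NCD. Fabp6, the ileal bile acid binding protein, was at 364, 102, 425, 485 and 1214 FPKM in HCD replicates 1 to 5, against 161 to 430 FPKM in NCD. HCD replicate 5, the next highest in Saa1 after replicate 1, was the highest library in both genes, and HCD replicate 2, lowest of its group in Saa1, was the lowest library in both. HCD replicate 1, the highest in Saa1, lay inside the NCD range in both. The other 3 ileum genes shared this order only in part. Fgf15, the ileal hormone that restrains bile acid synthesis, was at 21.0, 2.92, 4.71, 3.58 and 7.21 FPKM in HCD replicates 1 to 5, against 19.6 to 60.3 FPKM in NCD, so that only HCD replicate 1 reached the NCD range. Slc51a, a subunit of the bile acid exporter, was at 114 to 304 FPKM in HCD and 227 to 322 FPKM in NCD, and its partner Slc51b at 69.1 to 184 FPKM in HCD and 109 to 145 FPKM in NCD. The 6 genes of the proximal small intestine summed to 2026 to 4643 FPKM in HCD, lowest in replicate 5, against 3144 to 5319 FPKM in NCD. Fabp1 made up most of this sum. Gata4, a factor of the proximal gut, was at 48.4 to 76.5 FPKM in HCD, below every NCD library at 113 to 149 FPKM. Every HCD library lay below every NCD library in 12.9% of all tested genes. Fabp1 and Onecut2 also had lower means in HCD, but the rest of the list went the other way. Lct averaged 257 FPKM in HCD and 210 FPKM in NCD, Slc40a1 5.13 and 3.56 FPKM, and Cybrd1 0.104 and 0.0262 FPKM.

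Some genes of the colon list were high in 2 HCD libraries, although the 6 of its 7 genes with a row, Car4 the most abundant, summed to 148 to 302 FPKM in HCD and 212 to 378 FPKM in NCD. Car1, a carbonic anhydrase of colonocytes, was at 32.7 FPKM in HCD replicate 1 and 80.2 FPKM in HCD replicate 3 and listed at 0 in the other HCD libraries, against 0.905 FPKM in NCD replicate 1 and 0 in the other NCD libraries. Aqp8, a water channel of the colon, was at 43.2 FPKM in HCD replicate 1, 8.12 FPKM in HCD replicate 3 and 0.133 to 1.39 FPKM in the other HCD libraries, against 1.27 to 2.92 FPKM in NCD. Hoxb13, a homeobox gene of the hindgut, was at 6.71 FPKM in HCD replicate 1 and listed at 0 in the other 9 libraries. HCD replicates 1 and 3 also held the highest Saa3 values, and of Saa1 the highest value and, after replicate 5, the next. Without them Saa1 was at 0.708, 8.47 and 29.0 FPKM in HCD, the ratio of means to NCD was 20.6 and the log2 difference was 2.45. The single marker genes given with values here and below were named after their values had been seen, and the part of gut segment in the Saa1 levels was not tested.

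**Figure D2:**
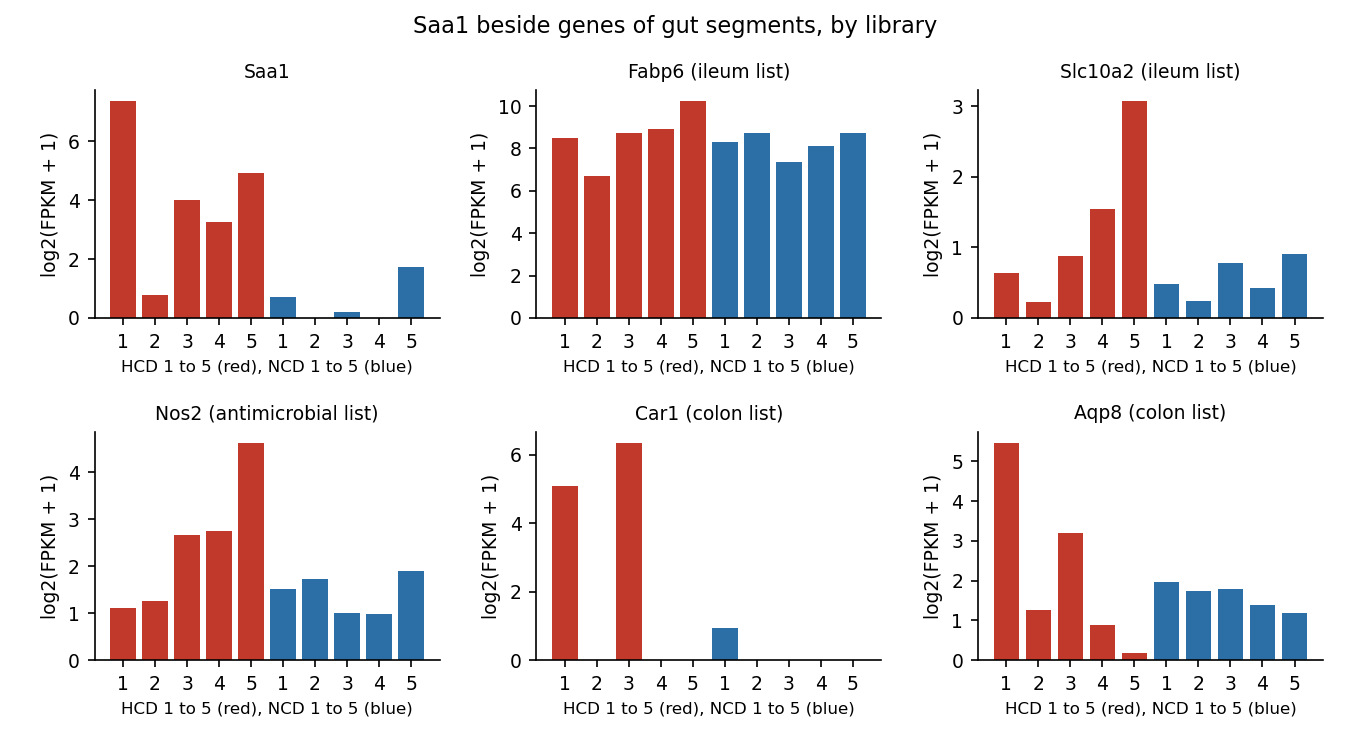
Saa1 beside ileal genes (Fabp6, Slc10a2), Nos2 and colonic genes (Car1, Aqp8) as log2(FPKM + 1) in every library, HCD replicates 1 to 5 in red and NCD replicates 1 to 5 in blue, each panel with its own axis from 0. Car1 and Aqp8 are highest in HCD replicates 1 and 3, at 32.7 and 80.2 FPKM and at 43.2 and 8.12 FPKM, while Slc10a2 and Nos2 are highest in HCD replicate 5, at 7.43 and 23.7 FPKM.

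Markers of other cells that can make serum amyloid A were low or overlapped between the groups, apart from 1 neutrophil gene. The 8 hepatocyte markers summed to 3.47 to 8.01 FPKM in HCD and 4.77 to 8.95 FPKM in NCD, and albumin (Alb) reached at most 0.200 FPKM in HCD and 0.380 FPKM in NCD. The 5 adipocyte markers were listed at 0 in all HCD libraries and summed to at most 0.600 FPKM in NCD, with Adipoq and Lep at 0 in all 10. The 8 macrophage markers summed to 33.1 to 63.7 FPKM in HCD and 19.9 to 58.2 FPKM in NCD, and 6 fibroblast markers to 0.144 to 0.269 FPKM in HCD and 0.0511 to 0.338 FPKM in NCD. Of 7 neutrophil markers Camp, Mpo and Elane were at 0 in all libraries, and the sum was 0.325 to 9.64 FPKM in HCD, of which Ly6g made 8.57 FPKM in HCD replicate 1, against 0 to 0.622 FPKM in NCD.

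Summed T cell and red cell markers were higher in every HCD library than in any NCD library, as 4.53% of single tested genes were. The 6 T cell markers summed to 446 to 945 FPKM in HCD, against 70.6 to 204 FPKM in NCD. In HCD the sum was highest in replicate 1 and lowest in replicate 2, as for Saa1. Replicate 5, the next highest in Saa1, had a sum of 526 FPKM, below replicates 3 and 4. Cd7, Cd3e and Itgae had the same highest and lowest HCD libraries as the sum. Cd3d was lowest in replicate 4, Cd3g and Cd8a were lowest in replicate 5, and Cd8a was highest in replicate 3. The 4 haemoglobin genes summed to 96.6 to 391 FPKM in HCD, highest in replicate 1, against 15.1 to 41.8 FPKM in NCD. The 7 epithelial markers were present in every library, at a sum of 5184 to 7195 FPKM in HCD and 7894 to 8686 FPKM in NCD. Krt8 and Krt19 made up most of this sum, and the genes did not move together. Epcam, Krt8, Krt19, Cdh1 and Cdx2 had lower means in HCD. Krt20 averaged 447 FPKM in HCD and 296 FPKM in NCD, and Vil1 676 FPKM in HCD and 611 FPKM in NCD. In bulk RNA fewer cells of a type and less RNA per cell cannot be told apart. The 13 protein genes of the mitochondrial genome took 14.8% to 29.5% of the summed FPKM in HCD, the most in replicate 1, against 3.23% to 5.76% in NCD. The part of these cells and of the mitochondrial share in the Saa1 levels was not tested.

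The genes whose library profile was most like that of Saa1 were S100a6, Sez6l2, Aplp1, Sprr2a1, Mgll and Syp. Likeness was the root mean square difference of log2(FPKM + 1) values, each gene standardised over the 10 libraries, and 10320 other genes were compared. S100a6, a calcium-binding protein, was closest at 0.209 SD units, followed by Sez6l2 at 0.358. S100a6 was at 203, 33.1, 71.9, 74.98 and 113 FPKM in HCD replicates 1 to 5, against 23.8 to 34.1 FPKM in NCD, so that HCD replicate 1 was highest, replicate 5 the next and replicate 2 within the NCD range, as for Saa1. Sprr2a1, a small proline-rich protein that gut epithelium makes in response to bacteria, was at 27.8, 1.13, 6.53, 1.58 and 2.72 FPKM in HCD replicates 1 to 5, against 0.219 to 0.799 FPKM in NCD. The likeness is a description over libraries that also share the difference between the groups.

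**Figure D3:**
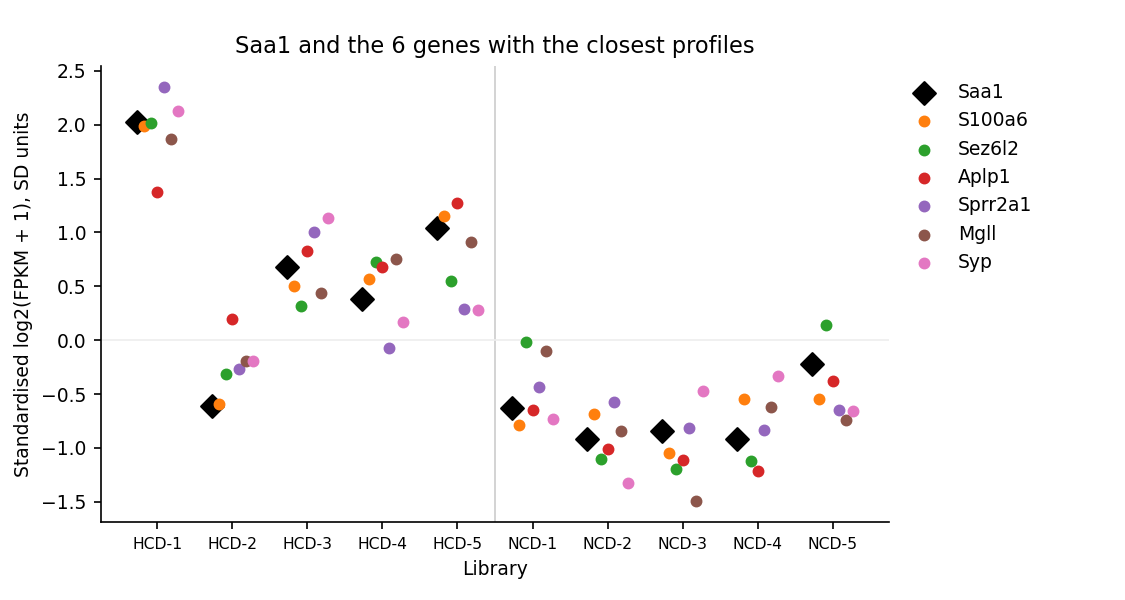
Standardised log2(FPKM + 1) of Saa1 (black diamonds) and of the 6 genes with the closest profiles in each library, HCD left of the line and NCD right of it. All 7 genes have their highest value in HCD replicate 1, and S100a6 lies closest to Saa1 with a root mean square difference of 0.209 SD units.

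The neighbours of the Saa genes on chromosome 7 were measured next, 6 on each side. Of the 12, 9 were tested with limma across all tested genes, with Benjamini-Hochberg adjusted p-values and a threshold of 0.05; 1 rose and none fell. By this test 26.3% of all 10321 genes passed, 7.13% as higher and 19.2% as lower in HCD. Tph1, which starts serotonin synthesis and lies on the side of Saa3, rose to 19.4 ± 4.78 FPKM in HCD, against 10.1 ± 0.724 FPKM in NCD (log2 difference 0.84 ± 0.17 SE, adjusted p = 0.00316, n = 5 each, limma). Its HCD libraries all lay above every NCD library, as in 4.53% of tested genes. Saal1, the gene next to Saa3 and no amyloid gene despite its name, was at 1.19 ± 0.240 FPKM in HCD and 1.89 ± 0.477 FPKM in NCD (adjusted p = 0.123, limma). Hps5, next to Saa2, was at 6.17 ± 1.40 FPKM in HCD and 8.35 ± 1.95 FPKM in NCD (adjusted p = 0.172, limma). Saal1 and Hps5 were named because they flank the cluster. The median log2 difference of the 9 was -0.32, beside -0.19 over all tested genes.

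**Figure D4:**
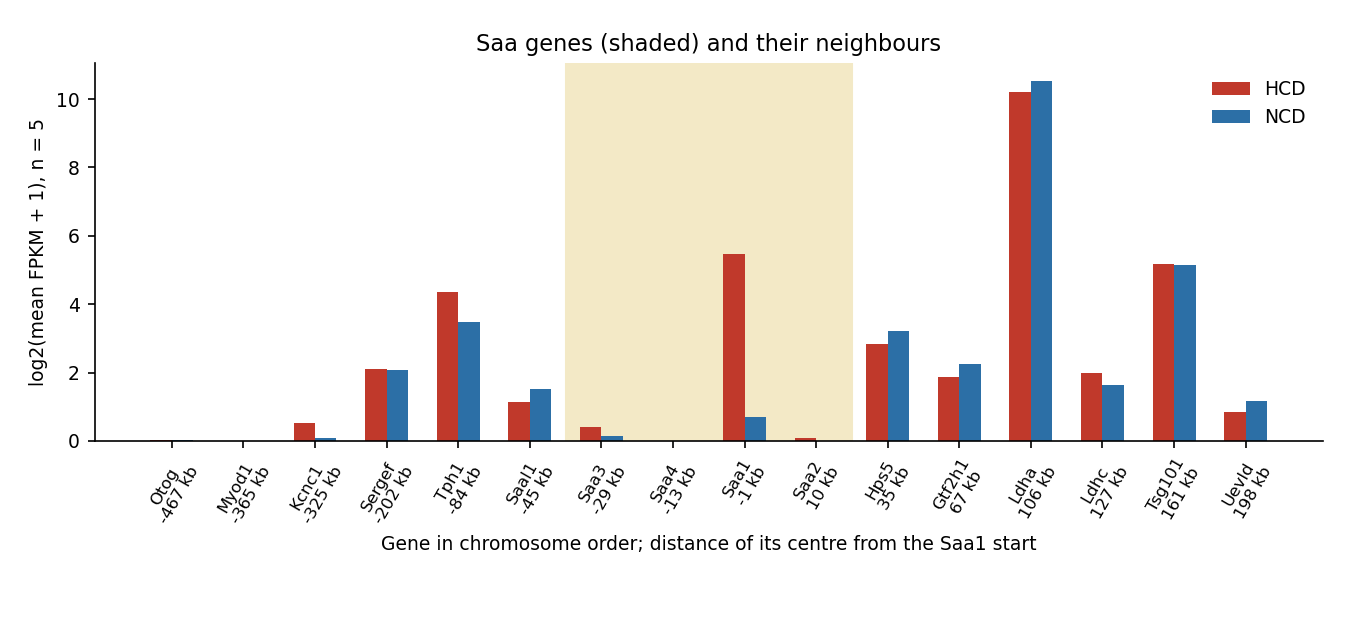
Mean expression, as log2(mean FPKM + 1) over 5 libraries, of the 4 Saa genes (shaded) and 6 neighbours on each side, in chromosome order with the distance of each gene's centre from the Saa1 start in kb and HCD (red) left of NCD (blue). Saa1 stands at 43.4 FPKM in HCD and 0.619 FPKM in NCD, between Saa4 listed at 0 and Saa2 at 0.0696 FPKM in HCD.

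Genes of the signals known to drive serum amyloid A came next, beginning with the STAT3 route of IL-22 and IL-6. None of the 9 tested genes of its 18 passed in limma, and none had an unadjusted p under 0.05. Over all tested genes 26.3% passed. The ligands were scarce: Il22 was at 0 to 0.921 FPKM in HCD and 0 to 1.43 FPKM in NCD, and Il6 was above 0 only in HCD replicate 3, at 0.112 FPKM. Il22ra1, the IL-22 receptor of epithelium, was at 6.50 ± 2.00 FPKM in HCD and 8.23 ± 4.43 FPKM in NCD (adjusted p = 0.671, limma). Stat3 was at 20.1 ± 4.54 FPKM in HCD and 19.98 ± 4.84 FPKM in NCD (adjusted p = 0.961, limma), and its target and inhibitor Socs3 at 48.3 ± 14.9 FPKM in HCD and 49.4 ± 11.6 FPKM in NCD (adjusted p = 0.867, limma).

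The NF-kB, IL-1 and C/EBP list had 2 genes higher and 4 lower among 18 tested of 24. These counts are near the shares over all tested genes, 7.13% higher and 19.2% lower, and say nothing particular of the list. With mitochondrial genes kept out of the scaling the list had 2 higher and 1 lower, beside 8.95% and 8.35% over all tested genes. Tnfaip3, the NF-kB target and inhibitor A20, rose to 46.2 ± 7.86 FPKM in HCD, against 20.7 ± 4.42 FPKM in NCD (log2 difference 1.13 ± 0.17 SE, adjusted p = 5.72e-04, limma). Il1rn, the IL-1 receptor antagonist, rose to 11.2 ± 4.75 FPKM in HCD, against 4.56 ± 0.995 FPKM in NCD (adjusted p = 0.0124, limma), and did not pass without HCD replicates 1 and 3 (adjusted p = 0.0961). Nfkbia, which holds NF-kB in the cytoplasm, fell to 70.4 ± 9.33 FPKM in HCD, against 111 ± 12.4 FPKM in NCD (adjusted p = 0.00316, limma).

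Cebpb, a C/EBP factor of the acute phase, was lower at 196 ± 57.1 FPKM in HCD and 305 ± 55.1 FPKM in NCD (adjusted p = 0.023, limma), but did not pass once mitochondrial genes were dropped from the scaling (adjusted p = 0.0605). It was also lost without HCD replicate 5, NCD replicate 1 or NCD replicate 4 (adjusted p of up to 0.0601) and with no filter on low values (0.0654), and over its alternatives the adjusted p reached 0.298. The factor Cebpd was at 6.92 ± 1.79 FPKM in HCD and 5.80 ± 0.963 FPKM in NCD (adjusted p = 0.432, limma). The NF-kB co-factor Nfkbiz was at 9.16 ± 2.95 FPKM in HCD and 7.00 ± 1.60 FPKM in NCD (adjusted p = 0.34, limma). Il1b, which induces hepatic serum amyloid A, was at 58.8 ± 30.2 FPKM in HCD and 37.2 ± 12.97 FPKM in NCD (adjusted p = 0.316, limma), and passed without HCD replicate 2 (log2 difference 0.86, adjusted p = 0.0438).

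Because of the mitochondrial share given above, all values were also rescaled to the other genes alone. The median difference of all tested genes was then -0.05 on the log2 scale, against -0.19 as deposited, so directions near these medians depend on the scaling. The share of higher genes among those that passed was 51.7% after rescaling and 27.1% as deposited. The Saa1 difference was 3.62 after rescaling, and the ratio of means 80.7.

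Retinoid genes were listed because serum amyloid A carries retinol and retinoid receptors act on its promoter. Of 11 tested of 16, 1 rose and 1 fell, beside 7.13% higher and 19.2% lower over all tested genes, so these counts say nothing particular of the list. Bco1, which cleaves carotene into retinal, rose to 7.32 ± 5.07 FPKM in HCD, against 0.528 ± 0.371 FPKM in NCD (log2 difference 2.24 ± 0.37 SE, adjusted p = 0.00111, limma). Isx, the homeobox repressor of Bco1, fell to 45.4 ± 13.3 FPKM in HCD, against 71.1 ± 4.94 FPKM in NCD (adjusted p = 0.0119, limma), a call that quantile normalization removed (adjusted p = 0.0957). Rarb, the retinoid receptor known to bind Saa promoters in mouse gut epithelium, was listed at 0 in all libraries.

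Of the epithelial antimicrobial genes, 10 of 18 were tested, of which none was higher and 2 were lower in limma, and 4 had an unadjusted p under 0.05. These counts are near the shares over all tested genes, 7.13% higher and 19.2% lower, and say nothing particular of the list. Reg3a, a bactericidal lectin, fell to 279 ± 76.4 FPKM in HCD, against 606 ± 109 FPKM in NCD (adjusted p = 0.00169, limma). Lypd8, which keeps flagellated bacteria off the epithelium, fell to 1470 ± 194 FPKM in HCD, against 2188 ± 210 FPKM in NCD (adjusted p = 0.0109, limma). Reg3b was at 6381 ± 2995 FPKM in HCD and 5944 ± 2109 FPKM in NCD (adjusted p = 0.994, limma), and Reg3g at 835 ± 470 FPKM in HCD and 901 ± 286 FPKM in NCD (adjusted p = 0.617, limma). In HCD replicate 1, highest in Saa1, Reg3g was at 211 FPKM and Reg3b at 2104 FPKM, the lowest values of all 10 libraries.

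Among the genes that missed the threshold, Nos2, the inducible nitric oxide synthase, was at 1.14, 1.40, 5.31, 5.74 and 23.7 FPKM in HCD replicates 1 to 5, against 0.982 to 2.74 FPKM in NCD (adjusted p = 0.149, limma). Duox2, an epithelial peroxide-forming oxidase, was at 2.07, 1.35, 3.34, 1.52 and 6.21 FPKM in HCD replicates 1 to 5, against 1.00 to 1.53 FPKM in NCD (adjusted p = 0.101, limma). In both genes HCD replicate 5 was highest, while the peak of Saa1 was HCD replicate 1. Lcn2, a siderophore-binding acute phase protein, was above 0 only in NCD replicate 1, at 0.0494 FPKM.

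The other acute phase proteins of plasma were close to absent. None of 19 such genes reached a mean of 1 FPKM, and 6 of them, Orm1, Orm3, Fgb, Fgg, Itih3 and Serpina3n, were listed at 0 in every library. Their sum was 1.06 to 1.82 FPKM in HCD and 0.549 to 2.98 FPKM in NCD. Hp, haptoglobin, was at 0.141 ± 0.0929 FPKM in HCD and 0.144 ± 0.202 FPKM in NCD (SD, n = 5 each). In HCD replicate 1 Saa1 alone, at 164 FPKM, stood far above this sum.

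**Figure D5:**
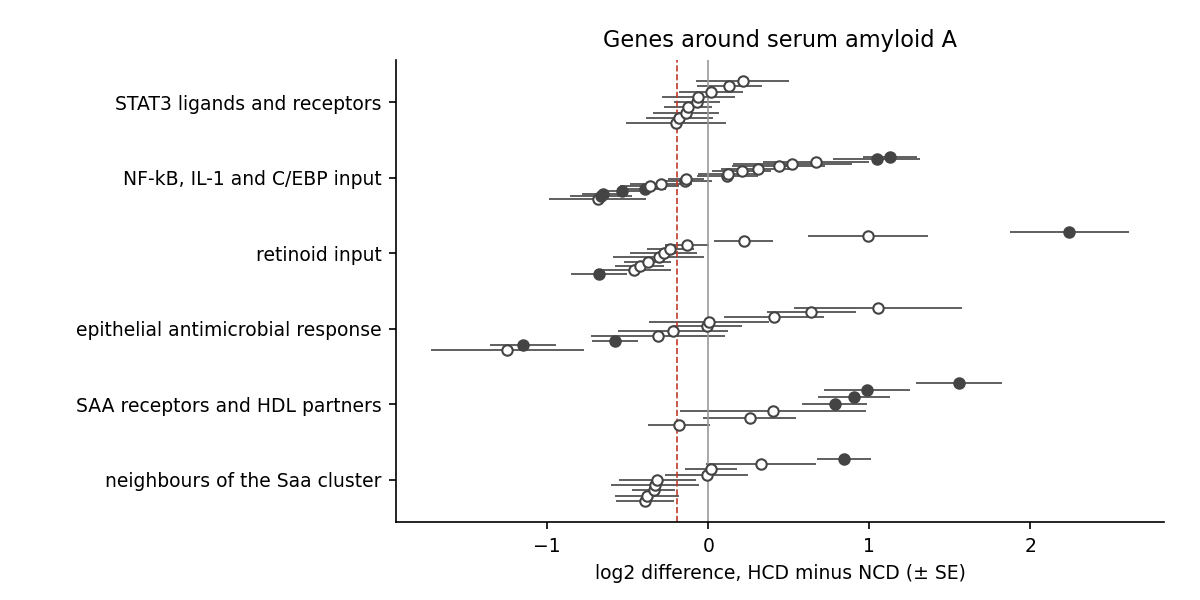
Log2 differences, HCD minus NCD, with SE from limma, of the tested genes in 5 lists around serum amyloid A and among the neighbours; filled points passed at an adjusted p under 0.05, and the dashed line is the median of all tested genes, -0.19. In the list of receptors and lipoprotein partners 4 of 7 genes passed as higher, and in the STAT3 list none of 9 passed. Over all tested genes 7.13% passed as higher and 19.2% as lower.

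Receptors and lipoprotein partners of serum amyloid A were the list with the most genes higher, 4 of 7 tested of 12, with none lower. Over all tested genes 7.13% passed as higher and 19.2% as lower. The median log2 difference of the list was 0.79, beside -0.19 over all tested genes. The lists were chosen with earlier results of these data known, so this count is only a description. P2rx7 was the only receptor among the 4. With no filter, with quantile normalization and in replicates 1 to 3 only 2 of the list were higher, and in replicates 4 and 5 it was 0. The count stayed at 4 with the other pseudocount, the replicate block and scaling without mitochondrial genes. Pltp, which transfers phospholipid to high-density lipoprotein, rose to 6.74 ± 2.00 FPKM in HCD, against 1.71 ± 1.05 FPKM in NCD (log2 difference 1.56 ± 0.27 SE, adjusted p = 0.00137, limma). P2rx7, an ATP-gated channel linked to serum amyloid A signalling, rose to 2.46 ± 0.378 FPKM in HCD, against 0.908 ± 0.575 FPKM in NCD (adjusted p = 0.00989, limma). Apoa1, the main protein of high-density lipoprotein, was at 19183 ± 4290 FPKM in HCD and 9978 ± 3312 FPKM in NCD (adjusted p = 0.0162, limma). Its difference changed sign to -0.24 after quantile normalization, and the call was lost without NCD replicate 1 (adjusted p = 0.0525) and with no filter on low values (0.0941). Apoa4, another lipoprotein component made by enterocytes, showed 7954 ± 1619 FPKM in HCD and 4614 ± 927 FPKM in NCD (adjusted p = 0.0118, limma), a call lost with quantile normalization (adjusted p = 0.802) and with no filter (0.0532).

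The scavenger receptor Scarb1, which binds serum amyloid A and high-density lipoprotein, was at 14.2, 42.1, 33.05, 31.8 and 1.83 FPKM in HCD replicates 1 to 5, against 8.69 to 21.8 FPKM in NCD (adjusted p = 0.643, limma). HCD replicate 5 was the lowest of all libraries and HCD replicate 2 the highest, and without replicate 5 Scarb1 passed as higher (log2 difference 1.08, adjusted p = 0.0214). The formyl peptide receptor Fpr2, through which serum amyloid A attracts leukocytes, was at 0 to 0.201 FPKM in HCD and 0 to 1.52 FPKM in NCD, and Fpr1 was listed at 0 in all libraries.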

How the data were processed

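Values are FPKM per gene and library, made by the authors and deposited as a single table. The submitters' processing notes name HISAT2, StringTie and the build GRCm38, without roles or versions; for annotation, filters and strand nothing is stated in these sources. Per the labels, RNA was selected with poly-T beads. FPKM gives no read totals. A read unit was searched for in each library among the low values of genes with a single transcript. At the best of many trial units, 29.3% to 39.1% of these values came within 0.1 of a whole number. Such a search raises the share by itself, and some values lie that close by chance. No read unit was found, so the depth is unknown and no counting interval is given.

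Symbols turned into dates, 27 in number, were restored by identifier. Libraries were grouped by title. The 10321 genes averaging 1 FPKM or more were fitted as log2(FPKM + 1) with limma 3.58.1 in R 4.3.3 (eBayes with a trend). P-values were two-sided and adjusted by Benjamini-Hochberg over these genes. The p-values measure the spread between these samples. The fit was tested on simulated data. Nothing marks same-numbered HCD and NCD libraries as paired.

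The members and gene lists were chosen with earlier results of these data known. Named are all 4 members, up to 3 genes with the smallest p per list among those that passed, 19 genes set in advance and the 6 closest profiles. Alternatives were another pseudocount, no filter, scaling without mitochondrial genes, quantile normalization, a replicate block, runs of library numbers and each library left out.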

Additional observations from a re-analysis of the deposited data

Results flagged for a closer look

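The highest and the lowest of 5 libraries were looked at by Dixon's criterion at the 95% level in 83 groups with any spread, and in 13 the highest library stood apart. Chance flags about 1 group in 20 if values are normally distributed; raw FPKM are skewed with many zeros, so that share is no measure for these 13. On the log2(FPKM + 1) scale 7 of them passed, and neither Saa1 flag did, with gaps of 0.373 of the range in HCD and 0.587 in NCD against a critical value of 0.71. Saa1 was flagged in HCD replicate 1 (164 FPKM) and NCD replicate 5 (2.32 FPKM), and Saa3 in NCD replicate 2 (0.469 FPKM). HCD replicate 1 also stood apart in Sprr2a1 (27.8 FPKM), Aqp8 (43.2 FPKM), Hoxb13 (6.71 FPKM) and Ly6g (8.57 FPKM). HCD replicate 5 stood apart in Nos2 (23.7 FPKM) and Slc10a2 (7.43 FPKM), and HCD replicate 3 in Il6 (0.112 FPKM). The remaining flags were Fpr2 in NCD replicate 4 (1.52 FPKM), Car1 in NCD replicate 1 (0.905 FPKM) and Lcn2 in NCD replicate 1 (0.0494 FPKM). Hoxb13, Il6, Car1 and Lcn2 were at 0 in the other libraries of the group in question. Car1, Aqp8, Hoxb13, Fabp6, Slc10a2 and Ly6g were added to the genes looked at after their values had been seen. Sprr2a1 was picked for its likeness to Saa1. Flags of these genes were partly set by that choice and are only descriptions.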

How the results depend on the processing

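The Saa1 difference kept its sign in every setting run. It was 5.36 with a pseudocount of 0.1, where Saa2 was at 0.54 and Saa3 at 0.66, and the ratio of Saa1 means was 231 in replicates 1 to 3. Leaving out single libraries gave 2.70 to 4.35 for the Saa1 difference and ratios of 21.4 to 223. Saa3 changed sign (-0.12) without HCD replicates 1 and 3, a setting chosen after seeing the data.

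Over all genes 736 passed as higher and 1982 as lower in the main setting. Lower genes numbered 861 without mitochondrial genes in the scaling, 883 after quantile normalization and 1260 without HCD replicates 1 and 3; replicates 1 to 3 gave 414 higher and 1006 lower, and replicates 4 and 5 gave 45 and 11. Single libraries left out gave 551 to 787 higher and 1319 (without NCD replicate 1) to 2036 lower. With the replicate block 673 were higher and 1620 lower, and deviations of same-numbered libraries correlated at -0.235 to 0.218, so the numbers were not taken as pairs. Of listed genes 7 passed as higher and 7 as lower; 4 were lower without mitochondrial genes, 3 after quantile normalization, and 0 passed either way in replicates 4 and 5. Of neighbours 2 were higher without a filter, 1 was lower after quantile normalization, 0 were higher in replicates 4 and 5, and 0 to 1 were lower with a library left out.

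Signs changed for genes that had not passed. In replicates 4 and 5 the values were Il22ra1 0.20, Stat3 -0.028, Socs3 0.00254, Reg3g 0.38 and Scarb1 -0.62. Without HCD replicates 1 and 3 they were Il22ra1 0.057, Socs3 0.18 and Reg3g 0.14. Socs3 was 0.11 without mitochondrial genes and 0.21 after quantile normalization, and Reg3b -0.63 after quantile normalization and -0.11 in replicates 1 to 3. With a library left out, ranges were -0.13 to 0.12 for Stat3, -0.19 to 0.14 for Socs3, -0.21 to 0.36 for Reg3b and -0.57 to 0.12 for Reg3g. Apoa1, which had passed, was -0.24 after quantile normalization. In replicates 4 and 5, with 2 libraries a group, none of the named calls passed, and in replicates 1 to 3 Il1rn, Lypd8, Cebpb, Apoa1 and Apoa4 did not; these settings have fewer libraries. The cause of the other changes was not tested.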
